A study of Caenorhabditis elegans with 8 samples.

Results

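Aminoacyl-tRNA synthetases join each amino acid to its tRNA before the ribosome can use it, and animals carry separate enzymes for translation in the cytosol and in mitochondria. The genes described here are those of the nematode Caenorhabditis elegans whose symbol is 1 letter, for the amino acid, followed by ars-1 or ars-2. The rule found 32 of the 17076 genes listed in the deposited table. Of these, 20 end in -1, 1 for each of 20 amino acids, and 12 end in -2. A pair of a -1 and a -2 gene was listed for 12 amino acids. The table of gene names gave 31 of the symbols, and the RefSeq symbol gave mars-2, the methionyl-tRNA synthetase gene Y105E8A.20. A further gene of that naming, cars-2, is annotated as a pseudogene and was not analysed here.

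In most pairs the -1 gene encodes the cytosolic enzyme and the -2 gene the mitochondrial one. Alanine and valine run against that numbering: aars-2 is known to encode the cytosolic alanyl-tRNA synthetase and aars-1 the mitochondrial one, while the cytosolic valyl-tRNA synthetase is glp-4, whose symbol lies outside the rule, and vars-1 is the mitochondrial gene. The single human genes for the glycyl and lysyl enzymes each give a cytosolic and a mitochondrial form. The enzymes fall into structural classes I and II, and in humans several cytosolic ones sit together in a multisynthetase complex. A lack of charged tRNA is sensed by the kinase GCN2, which slows translation and raises translation of the transcription factor ATF4.

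RNA was sequenced from whole hermaphrodites with the wild-type N2 background in 2 groups of 4 libraries. The first group was labelled adult day 5 and had been grown from synchronized first-stage larvae for 180 h, and the second was labelled adult day 1 and had been grown for 60 h, both at 20 °C on plates seeded with the bacterium OP50. Both groups carry the same genotype, and each labelled batch, numbered 1 to 4, holds 1 library of each age. The stated culture times lie farther apart than the stated ages, and the design text gives the name of the older group to the younger one, so groups were taken from the age label of each sample. Whether the libraries of an age were separate cultures is not stated, so the p-values rest on a spread between libraries that may be technical.

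Libraries held 20569012 to 22305681 reads at day 5 and 19345868 to 20763236 reads at day 1. Each value is a number of reads over the library's size factor and takes no account of gene length, so 1 read is worth 0.886 to 1.13 and counting error is small for these genes: the member with the fewest reads had 405 in its lowest library. The libraries differed in tissue markers. Summed values of 6 yolk genes were 589523 to 1297260 at day 5 and 111 to 4415 at day 1, where batches 3 and 4 were lowest at 122 and 111. All 8 body-wall muscle markers and 6 of 8 intestinal markers were lower at day 5, and 11 of 12 germline and oocyte markers were higher. Of 9 moult and hypodermis markers 8 were lower. Their summed values were 2819 to 7920 at day 5. In day 1 batches 1 to 4 they were 73855, 63607, 27977 and 44848. Whether the libraries of an age held animals of the same stage was not tested. Neuronal markers were called higher in 2 and lower in 5 of 8, and sperm markers lower in 1 of 9, with summed values of 316 to 3070 at day 5 and 243 to 4808 at day 1. In no library were more than 2 genes of a marker list at 0. In whole animals, fewer cells of a type and less RNA per cell cannot be told apart, and the part of these markers in the results on synthetases was not tested.

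Most synthetase genes differed little between ages. Of the 32 members, 26 had a log2 difference, day 5 minus day 1, smaller than 0.5 in size. The median size of the log2 difference was 0.28 over the members and 1.12 over all 16739 genes tested. A difference of at least 1 on the log2 scale was seen in 1 of 32 members, against 54.8% of all genes. By limma on log2(value + 1), with Benjamini-Hochberg adjustment over all genes and a threshold of 0.05, 6 members were called higher at day 5 and 0 lower, against 28.8% of genes called higher and 26.8% called lower. At an unadjusted p under 0.05, 5 of the 26 members not called passed, 4 of them higher and 1, vars-1, lower. edgeR and DESeq2 on the whole reads called 5 and 8 members higher, and 0 lower. The values of the 2 ages did not overlap in 12 of 32 members, against 52.8% of all genes.

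**Figure D1:**
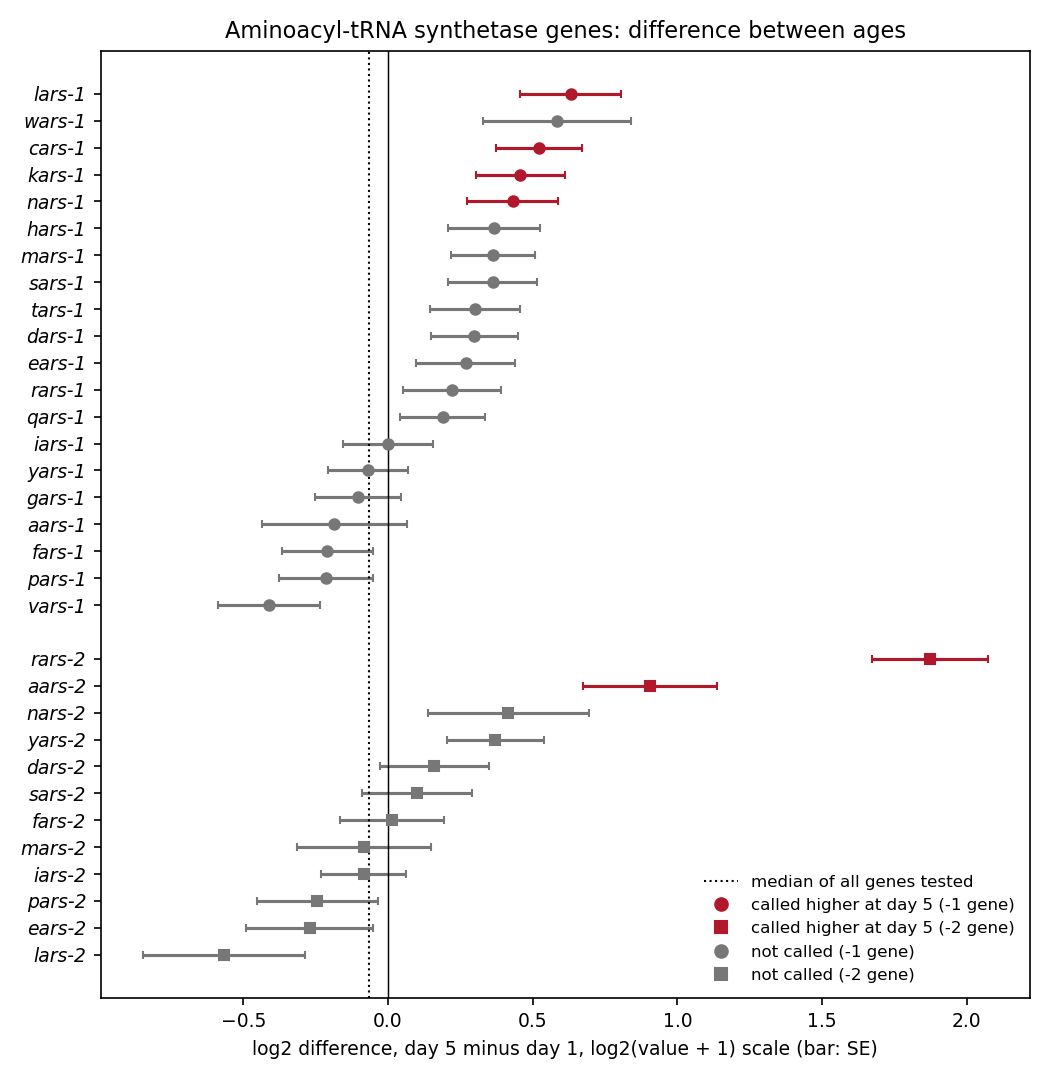
Log2 difference between day 5 and day 1 for each of the 32 members, -1 genes above and -2 genes below, with bars for the standard error and a dotted line at the median of all genes tested. rars-2 stands alone at 1.87, and the differences of the other members run between -0.57 for lars-2 and 0.91 for aars-2.

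The largest difference belonged to rars-2 (WBGene00004680), which encodes the mitochondrial arginyl-tRNA synthetase and lies on the plus strand of chromosome II, bases 6125559 to 6127942 of WBcel235. Its values in batches 1 to 4 were 1980, 1759, 1531 and 2136 at day 5, against 495, 394, 646 and 501 at day 1. Every day 5 library lay above every day 1 library. The mean was 1852 ± 264 at day 5 and 509 ± 104 at day 1 (SD, n = 4 each), a 3.64-fold difference. The log2 difference was 1.87 (SE 0.20, limma adjusted p = 5.01e-05), and it stayed between 1.39 and 2.08 in all 26 alternative settings. Of all genes tested, 13.1% had a larger positive difference. The gene shares no exonic bases with another, and its nearest neighbour on the same strand, C29H12.2, 121 bases away, was also called higher, with a log2 difference of 0.76 (limma adjusted p = 0.018) and overlapping groups.

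Its partner rars-1, the cytosolic arginyl-tRNA synthetase gene, was not called. Values of rars-1 were 4788, 4178, 3663 and 3817 at day 5, against 3028, 3321, 4227 and 3551 at day 1, and the day 1 library of batch 3 lay among the day 5 libraries. The log2 difference was 0.22 (SE 0.17, limma adjusted p = 0.30).

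The other -2 gene called higher was aars-2 (WBGene00000197), the gene of the cytosolic alanyl-tRNA synthetase, on the plus strand of chromosome I, bases 3983183 to 3986581. Its values were 11009, 9106, 9528 and 10499 at day 5, against 6232, 6865, 3369 and 5638 at day 1. The groups did not overlap, and the day 1 library of batch 3 was lowest by a wide margin. Means were 10035 ± 873 at day 5 and 5526 ± 1523 at day 1 (SD, n = 4 each), a 1.82-fold difference, and the log2 difference was 0.91 (SE 0.23, limma adjusted p = 0.0076). Without the day 1 library of batch 3 it was 0.68 (limma adjusted p = 0.0043). aars-2 had the highest level of the -2 set at both ages, also per kilobase of exonic sequence, with 3210 at day 5 and 1768 at day 1.

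The mitochondrial partner aars-1 had values of 803, 853, 623 and 441 at day 5 and 645, 622, 938 and 836 at day 1. These groups overlapped, with the lowest value in the day 5 library of batch 4 and the highest in the day 1 library of batch 3. The log2 difference was -0.18 (SE 0.25, limma adjusted p = 0.57). Per kilobase of exonic sequence the -2 gene was the more abundant of this pair, the reverse of every other pair: the ratio of aars-1 to aars-2 was 0.071 at day 5 and 0.14 at day 1.

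In the -1 set 4 genes were called higher at day 5, each by a smaller amount. The leucyl-tRNA synthetase gene lars-1 (WBGene00003073; chromosome III, bases 4181549 to 4186801, minus strand) had values of 9272, 8635, 7518 and 6181 at day 5, against 4510, 5319, 5226 and 5140 at day 1. All day 5 libraries lay above all day 1 libraries, with batch 4 nearest. Means were 7902 ± 1357 at day 5 and 5049 ± 367 at day 1 (SD, n = 4 each), with a log2 difference of 0.63 (limma adjusted p = 0.011, SE 0.17).

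The cysteinyl-tRNA synthetase gene cars-1 (WBGene00000800) had values of 5964, 5563, 5228 and 5939 at day 5, against 4245, 4128, 3463 and 4000 at day 1. The groups did not overlap, and each varied little. The log2 difference was 0.52 (SE 0.15, limma adjusted p = 0.013). The gene, on the minus strand of chromosome I at bases 2623099 to 2628577, shares 88 exonic bases with Y23H5A.2 on the other strand. Strand marking is not stated, so reads there may belong to either gene. Y23H5A.2 averaged 441 at day 5 and 97 at day 1 and was called higher, with a log2 difference of 2.17. The effect of that overlap on cars-1 was not tested.

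The lysyl-tRNA synthetase gene kars-1 (WBGene00002238) had the highest level of the -1 set, also per kilobase, with 4972 at day 5 and 3615 at day 1. Its values were 10892, 9438, 9638 and 11257 at day 5, against 6828, 8054, 7665 and 7432 at day 1. No day 5 library fell among the day 1 libraries. Means were 10306 ± 903 at day 5 and 7495 ± 513 at day 1 (SD, n = 4 each), and the log2 difference was 0.46 (SE 0.15, limma adjusted p = 0.027). The asparaginyl-tRNA synthetase gene nars-1 (WBGene00003815) had values of 5829, 5017, 5401 and 6730 at day 5, against 3983, 4007, 4625 and 4365 at day 1. Its groups were also apart, and its log2 difference was 0.43 (SE 0.16, limma adjusted p = 0.040).

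The calls of the 6 genes did not hold equally. rars-2 and aars-2 were called in each of the 26 alternative settings, lars-1 was not called in 3, cars-1 in 4, kars-1 in 12 and nars-1 in 15. Leaving out the day 5 library of batch 1, 3 or 4, or the day 1 library of batch 1 or 4, ended the calls of kars-1 and nars-1, with limma adjusted p between 0.050 and 0.109, and leaving out the day 1 library of batch 2 ended that of nars-1 alone, at 0.088. With the batch as a block, kars-1 had a limma adjusted p of 0.069 and nars-1 of 0.076, so 2 instead of 4 genes of the -1 set were called. The groups of all 6 genes were apart, so by construction each was also higher at day 5 in 4 of 4 batches.

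**Figure D2:**
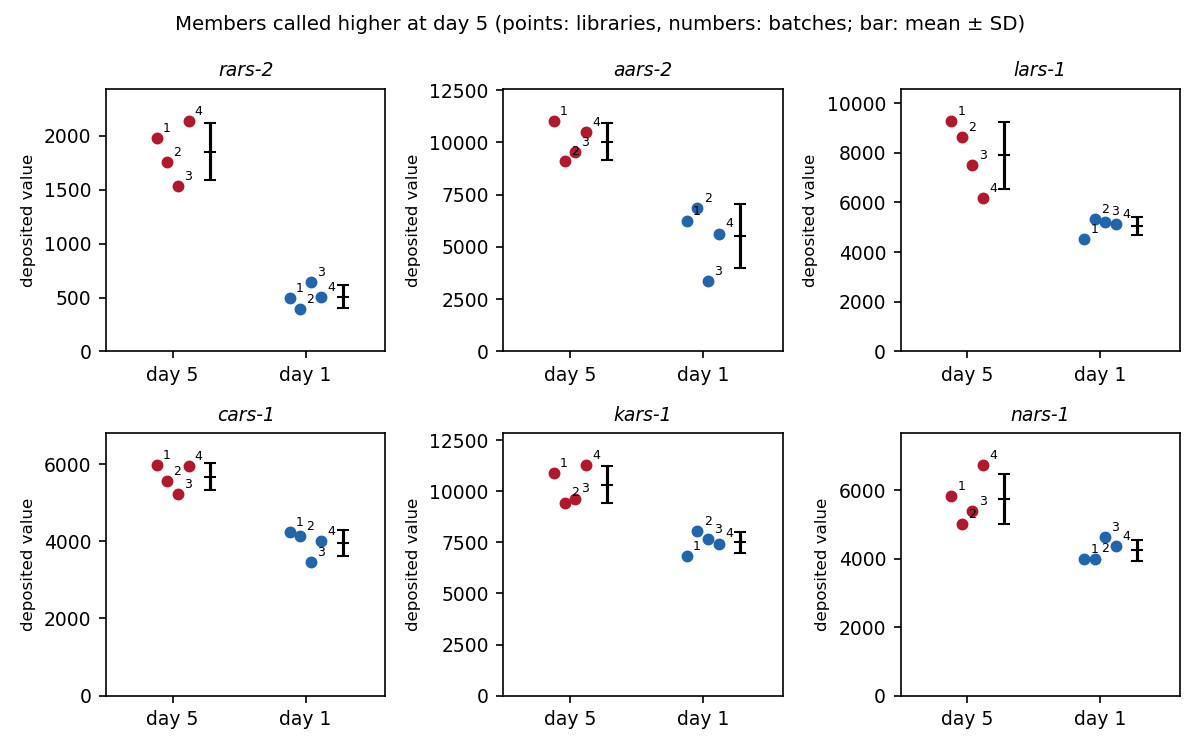
Deposited values (reads divided by a size factor; axes start at 0) of the 6 members called higher at day 5, with 1 point per library, the batch number beside it, and the mean ± SD of each age. In all 6 panels the lowest day 5 point lies above the highest day 1 point, by the widest relative gap for rars-2, at 1531 against 646.

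Groups also did not overlap in 6 members that were not called, all with higher values at day 5: mars-1, hars-1, sars-1, tars-1, dars-1 and qars-1, for methionine, histidine, serine, threonine, aspartate and glutamine. Their log2 differences were 0.36, 0.37, 0.36, 0.30, 0.30 and 0.19, with limma adjusted p between 0.055 and 0.30. The nearest to the threshold was mars-1, with values of 6529, 5652, 5542 and 6378 at day 5 and 4551, 4805, 4485 and 4846 at day 1, and a limma adjusted p of 0.055. Without the day 1 library of batch 3, hars-1 had a log2 difference of 0.44 and a limma adjusted p of 0.026.

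The tryptophanyl-tRNA synthetase gene wars-1 had the largest positive difference of the members not called. It averaged 2775 ± 327 at day 5 and 1930 ± 636 at day 1 (SD, n = 4 each), with a log2 difference of 0.58 (limma adjusted p = 0.077, SE 0.26). The day 1 library of batch 3 was lowest at 1116, and without the day 1 library of batch 1, at 2561, the limma adjusted p was 0.033.

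No member was called lower. Among the 12 with a negative difference, lars-2, the mitochondrial leucyl-tRNA synthetase gene on chromosome I (bases 7457152 to 7460756, minus strand), was farthest from 0. Its values were 1069, 1068, 757 and 611 at day 5, against 897, 1057, 1875 and 1432 at day 1. The groups overlapped: day 5 batches 1 and 2 lay between day 1 batches 2 and 4. The log2 difference was -0.57 (SE 0.28, limma adjusted p = 0.11). The valyl-tRNA synthetase gene vars-1, also mitochondrial, averaged 939 ± 138 at day 5 and 1246 ± 155 at day 1 (SD, n = 4 each), with a log2 difference of -0.41 (limma adjusted p = 0.074, SE 0.18). The isoleucyl genes were nearly level: iars-1 had a log2 difference of -0.00053 and iars-2 of -0.08, with limma adjusted p of 0.998 and 0.66. However, iars-2 shares 209 exonic bases with C25A1.20 and clec-87, and clec-87 averaged 23823 at day 5 and 146 at day 1. The effect of that overlap on the values of iars-2 was not tested.

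Set against each other, the -1 genes held 4 called higher of 20 and the -2 genes 2 of 12, and both shares were below the 28.8% of all genes. The median log2 difference was 0.28 over the -1 set and 0.06 over the -2 set, beside -0.06 over all genes. Groups did not overlap in 10 of 20 genes of the -1 set and in 2 of 12 of the -2 set, beside 52.8% of all genes. Log2 differences ran between -0.41 and 0.63 in the -1 set and between -0.57 and 1.87 in the -2 set. No test of the sets was made, since genes of a set are not replicates.

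These set values depend on the scaling. With each library scaled to the sum of its genes other than the top 1% by mean value, the median of all genes moved to -0.30. The members called became 2 higher and 5 lower instead of 6 and 0, beside 4220 higher and 5337 lower of all 16749 genes then tested. The median of the -1 set was then 0.03 and that of the -2 set -0.20, which lie 0.33 and 0.10 above that of all genes, beside 0.35 and 0.12 with the values as deposited. Under quantile normalization 4 members were called higher and 10 lower, beside 4113 higher and 4318 lower of all 16739 genes. The -2 median was then -0.55, below the -0.12 of all genes. The -1 median stayed above 0 in every scaling tried, and the -2 median turned negative under these 2 and, at -0.03, when every library was scaled to the same sum.

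As a share of all reads, the members together took 0.573% to 0.636% at day 5 and 0.489% to 0.563% at day 1, ranges that do not overlap. The -1 genes took 0.471% to 0.531% at day 5 and 0.413% to 0.479% at day 1, which overlap. The -2 genes took 0.0992% to 0.105% at day 5 and 0.0762% to 0.0836% at day 1, and aars-2 made up 10035 of a mean sum of 21338 at day 5 and 5526 of 15761 at day 1. Without correction for length, the summed values of the -2 genes were 19.6% to 21.5% of those of the -1 genes at day 5 and 17.3% to 18.5% at day 1.

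Regrouped by the compartment that background knowledge gives, with aars-1 and vars-1 placed among the mitochondrial genes and aars-2 and glp-4 among the cytosolic ones, 5 of 20 cytosolic genes were called higher and 0 lower, with a median log2 difference of 0.33, beside 28.8% of all genes called higher. Of the 13 mitochondrial genes 1, rars-2, was called higher and 0 lower, with a median of -0.08. This regrouping was chosen after the values were seen. The cytosolic group keeps -1 genes without a listed -2 partner, among them cars-1 and kars-1, both called higher. Whether such genes also serve mitochondria was not tested. The summed mitochondrial genes took 0.0594% to 0.0678% of reads at day 5 and 0.0562% to 0.0715% at day 1, and the day 5 range lies within the day 1 range.

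The mitochondrial genes had their high day 1 values in 1 library. The day 1 library of batch 3 held the highest day 1 value of 12 of the 13 mitochondrial genes, and, of the 20 cytosolic genes, the lowest day 1 value of 10 and the highest of 6. The day 1 library of batch 1 was lowest for 9 of the 20. In the -2 set the day 1 library of batch 3 held the highest day 1 value of 10 of 12 genes. This is a library with low values of yolk and germline markers, at 122 for the yolk genes summed and 15597 for the germline genes summed, against 25619 and 25916 for germline genes in the day 1 libraries of batches 1 and 2, and the day 1 library of batch 4 was as low, at 111 and 16208. The part of this library's marker levels in the synthetase values was not tested. When the day 1 library of batch 3 was left out, 9 members instead of 6 were called higher. The members joining were nars-2, yars-2 and hars-1, and 4 of 12 -2 genes were then called. In the same setting 5026 of all 16739 genes were called higher.

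**Figure D3:**
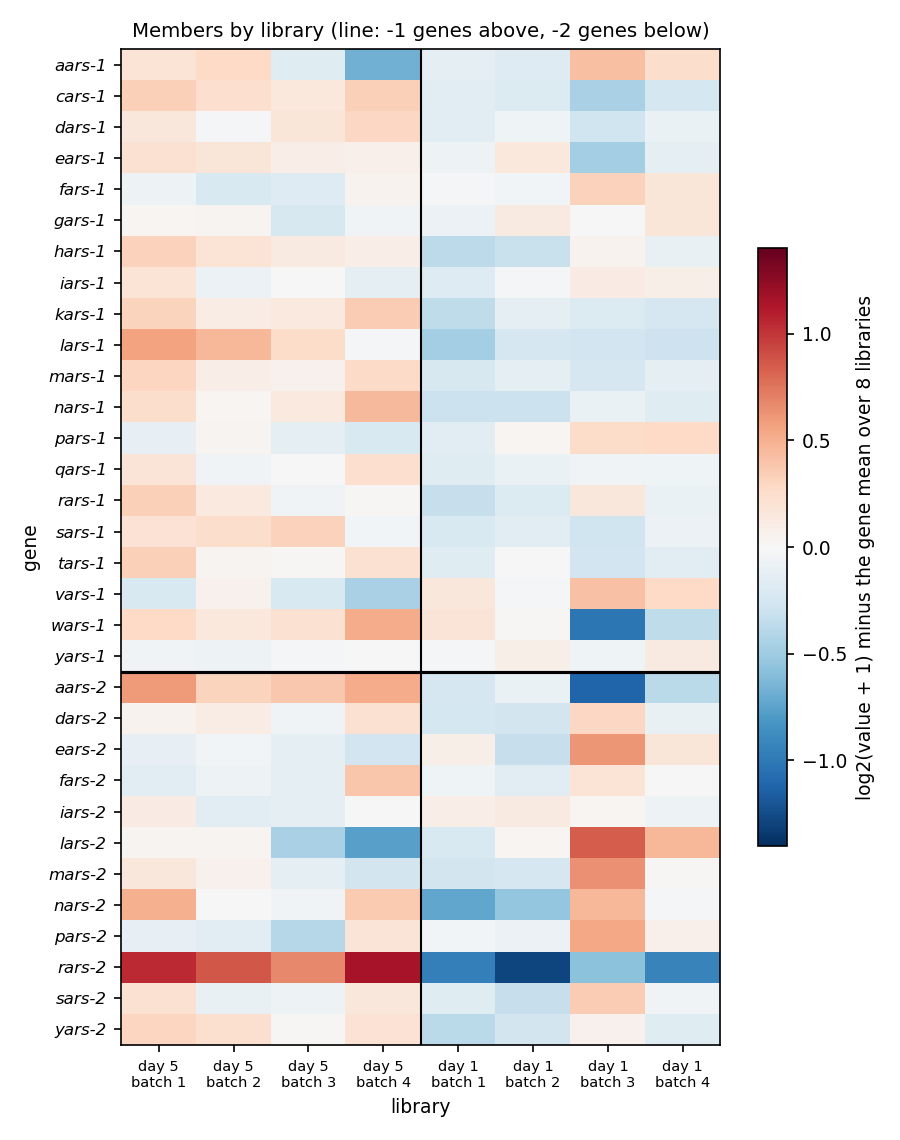
Each member's log2(value + 1) in each of the 8 libraries, minus the gene's mean over the libraries, with day 5 on the left, day 1 on the right, -1 genes above the line and -2 genes below. rars-2 is dark red in all day 5 columns and blue in all day 1 columns, and the day 1 column of batch 3 is red for most -2 genes and dark blue for aars-2, at 3369, and wars-1, at 1116.

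The structural classes held like counts. No share called higher, by class or by the human multisynthetase complex, reached the 28.8% of all genes. In the -1 set 2 of 10 class I genes and 2 of 10 class II genes were called higher, with median log2 differences of 0.25 and 0.30. In the -2 set the class I gene called was rars-2 and the class II gene aars-2, 1 of 6 in each. The 9 genes whose human counterparts belong to the multisynthetase complex had a median log2 difference of 0.27 with 2 called higher, lars-1 and kars-1, and the 11 other -1 genes had a median of 0.30 with 2 called higher, cars-1 and nars-1. The 12 genes of the -1 set that have a -2 partner had a median of 0.25, and the 8 that have none had a median of 0.33.

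In 11 of the 12 pairs the -1 gene was the more abundant per kilobase of exonic sequence, alanine being the exception. Leaving out alanine, the ratio of -1 to -2 per kilobase ran between 1.53 and 14.1 at day 5 and between 2.51 and 12.6 at day 1. At both ages the widest was that of aspartate, where dars-1 averaged 7569 ± 650 at day 5 and 6149 ± 413 at day 1, and dars-2 averaged 584 ± 44.9 at day 5 and 527 ± 99.1 at day 1 (SD, n = 4 each). The narrowest was that of arginine at day 5 and of tyrosine at day 1. Levels per kilobase had a median of 1883 at day 5 and 1630 at day 1 in the -1 set, and of 553 at day 5 and 479 at day 1 in the -2 set.

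The ratio of the -1 to the -2 gene, taken within each library, compares the genes of a pair in a way that a size factor cancels out of. The ages did not overlap in 2 of 12 pairs, arginine and leucine, and the differences were of opposite sign. For arginine the log2 ratio of rars-1 over rars-2 was 1.27, 1.25, 1.26 and 0.84 at day 5, against 2.61, 3.07, 2.71 and 2.82 at day 1, a difference of -1.65. For leucine the log2 ratio of lars-1 over lars-2 was 3.12, 3.01, 3.31 and 3.34 at day 5, against 2.33, 2.33, 1.48 and 1.84 at day 1, a difference of 1.20. Every day 5 library thus held relatively more rars-2 beside rars-1, and relatively more lars-1 beside lars-2. In an exact two-sided permutation test over the 8 libraries both gave p = 0.0286, the smallest value that 4 against 4 libraries allow. Benjamini-Hochberg adjustment over the 12 pairs compared gave 0.137 for both, so neither passed it. That adjustment can be passed only where most of the 12 pairs reach the smallest value, so it cannot decide on arginine or leucine. Because the ages did not overlap, the arginine ratio was by construction lower at day 5 in 4 of 4 batches, and the leucine ratio higher.

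**Figure D4:**
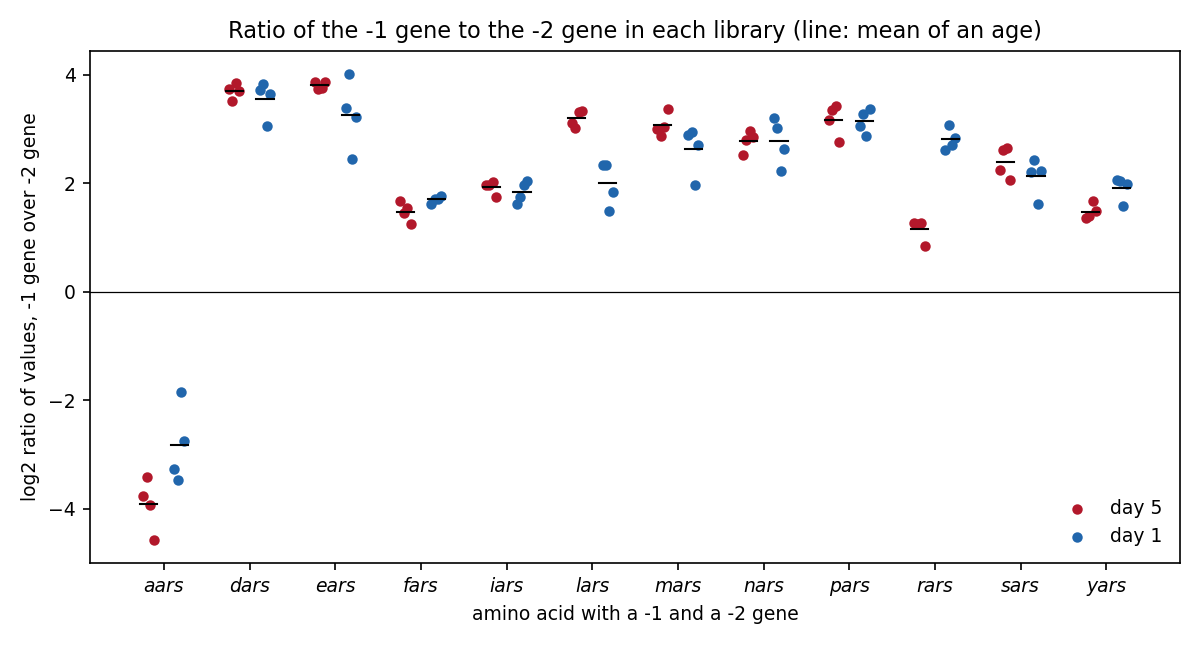
Log2 ratio of the -1 gene to the -2 gene for the 12 amino acids with both, 1 point per library, day 5 left of day 1, with a line at each mean. The ages are apart for lars, where the means are 3.19 at day 5 and 1.995 at day 1, and for rars, where they are 1.15 at day 5 and 2.80 at day 1, and alanine alone lies below 0.

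In the other 10 pairs the ages overlapped. The alanine ratio, aars-1 over aars-2, averaged -3.92 ± 0.48 at day 5 and -2.83 ± 0.72 at day 1 (SD, n = 4 each), a difference of -1.09 (exact permutation p = 0.0571). The tyrosine ratio differed by -0.44 and the phenylalanine ratio by -0.22, each with an exact permutation p of 0.0571. The glutamate ratio differed by 0.54 and the methionine ratio by 0.45, with exact permutation p of 0.143 and 0.0857.

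The genes behind these ratios had differences of opposite sign, and none of them was called except aars-2. For tyrosine, yars-1 had values of 2734, 2696, 2794 and 2811 at day 5 and 2784, 2999, 2718 and 3077 at day 1, and its log2 difference of -0.07 had the smallest standard error of any member, 0.14. Its partner yars-2 had values of 1071, 1022, 882 and 1000 at day 5 and 671, 728, 909 and 776 at day 1, where the batch 3 libraries cross, with a log2 difference of 0.37 (limma adjusted p = 0.085). For phenylalanine, fars-1, the alpha subunit of the cytosolic enzyme, had values of 3812, 3449, 3532 and 4128 at day 5 and 3930, 3882, 4991 and 4496 at day 1, lower at day 5 in 4 of 4 batches, with a log2 difference of -0.21 (limma adjusted p = 0.29). Its partner fars-2 had 1197, 1269, 1214 and 1738 at day 5 and 1279, 1194, 1521 and 1328 at day 1, so the groups overlapped, with the day 5 library of batch 4 apart from the other 3.

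For glutamate, ears-1 had values of 6958, 6744, 6399 and 6305 at day 5 and 5708, 6676, 4322 and 5466 at day 1, and ears-2 had 479, 504, 476 and 431 at day 5 and 547, 413, 795 and 584 at day 1. Both overlapped, and the day 1 library of batch 3 was the lowest of ears-1 and the highest of ears-2. For methionine, mars-2 had values of 819, 769, 675 and 617 at day 5 and 616, 624, 1147 and 747 at day 1, again with day 1 batch 3 highest. For asparagine, nars-2 had 1018, 722, 696 and 927 at day 5 and 435, 493, 991 and 703 at day 1, and the asparagine ratio differed by 0.01, since both genes had positive differences of like size, 0.43 for nars-1 and 0.42 for nars-2 (limma adjusted p = 0.23). Without the day 1 library of batch 3 the difference of nars-2 was 0.64 (limma adjusted p = 0.037) and that of yars-2 was 0.45 (limma adjusted p = 0.030).

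The members lie on chromosomes I (10), II (4), III (6), IV (8) and V (4), and 14 of the 32 share 4 to 209 exonic bases with another gene, where reads cannot be assigned with certainty. For 11 members the nearest listed gene is no member, lies on the same strand and starts or ends within 150 bases without overlapping the member. Of these 11 neighbours 6 were called higher and 1 lower, beside 28.8% and 26.8% of all genes. The difference had the same sign as that of the member in 4 of the 11. Lying 100 bases from lars-2, ZK524.4 was called higher, with a log2 difference of 1.91, while that of lars-2 was -0.57. The pair mars-2 and yars-1 lie 110 bases apart on the minus strand of chromosome I, and their log2 differences were -0.08 and -0.07.

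Other genes of tRNA making, delivery and sensing were taken from lists of which 37 genes outside the members were found and tested. Among these 37, 10 were called higher and 3 lower, beside 28.8% and 26.8% of all genes. The largest list holds genes of tRNA maturation and modification, of which 20 of 25 were found. Of these, 9 were called higher and 0 lower, beside 28.8% and 26.8% of all genes, with a median log2 difference of 0.51. With scaling on genes outside the top 1% the median was 0.26 with 6 called higher, beside 4220 of all 16749 genes. Under quantile normalization it was -0.07 with 1 called higher, beside 4113 of all 16739 genes. The exportin gene xpo-3, whose product carries tRNA out of the nucleus, had values of 3189, 2367, 2445 and 2449 at day 5, against 1787, 1745, 538 and 937 at day 1. The tRNase Z gene hoe-1, which trims the end of precursor tRNA, had values of 4690, 3939, 3660 and 3428 at day 5, against 1727, 1893, 2293 and 1709 at day 1. Neither gene's groups overlapped. Their log2 differences were 1.21 (SE 0.36, limma adjusted p = 0.016) and 1.04 (SE 0.17, limma adjusted p = 0.00064).

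The other genes of that list called higher were elpc-4, elpc-1 and elpc-3 of the Elongator complex, the methyltransferase gene trm-1, the tRNA ligase gene rtcb-1, tgt-1 of queuosine exchange and alkb-8, which acts on wobble uridines. Their log2 differences were 0.88, 0.52, 0.51, 0.79, 0.75, 0.73 and 0.63. The call of elpc-3 (limma adjusted p = 0.048) ended without any 1 library other than the day 1 library of batch 3, and that of elpc-1 without day 5 batch 1 or 2 or day 1 batch 1 or 4. With the batch as a block neither was called, with limma adjusted p of 0.081 for elpc-3 and 0.059 for elpc-1. Both had negative differences under quantile normalization, and neither they nor alkb-8 were called with scaling on genes outside the top 1%. The genes not called ran between -0.11 for nsun-5 and 0.56 for popl-1. Without the day 1 library of batch 3, 15 instead of 10 of the 37 genes of all lists were called higher, beside 5026 of all 16739 genes.

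**Figure D5:**
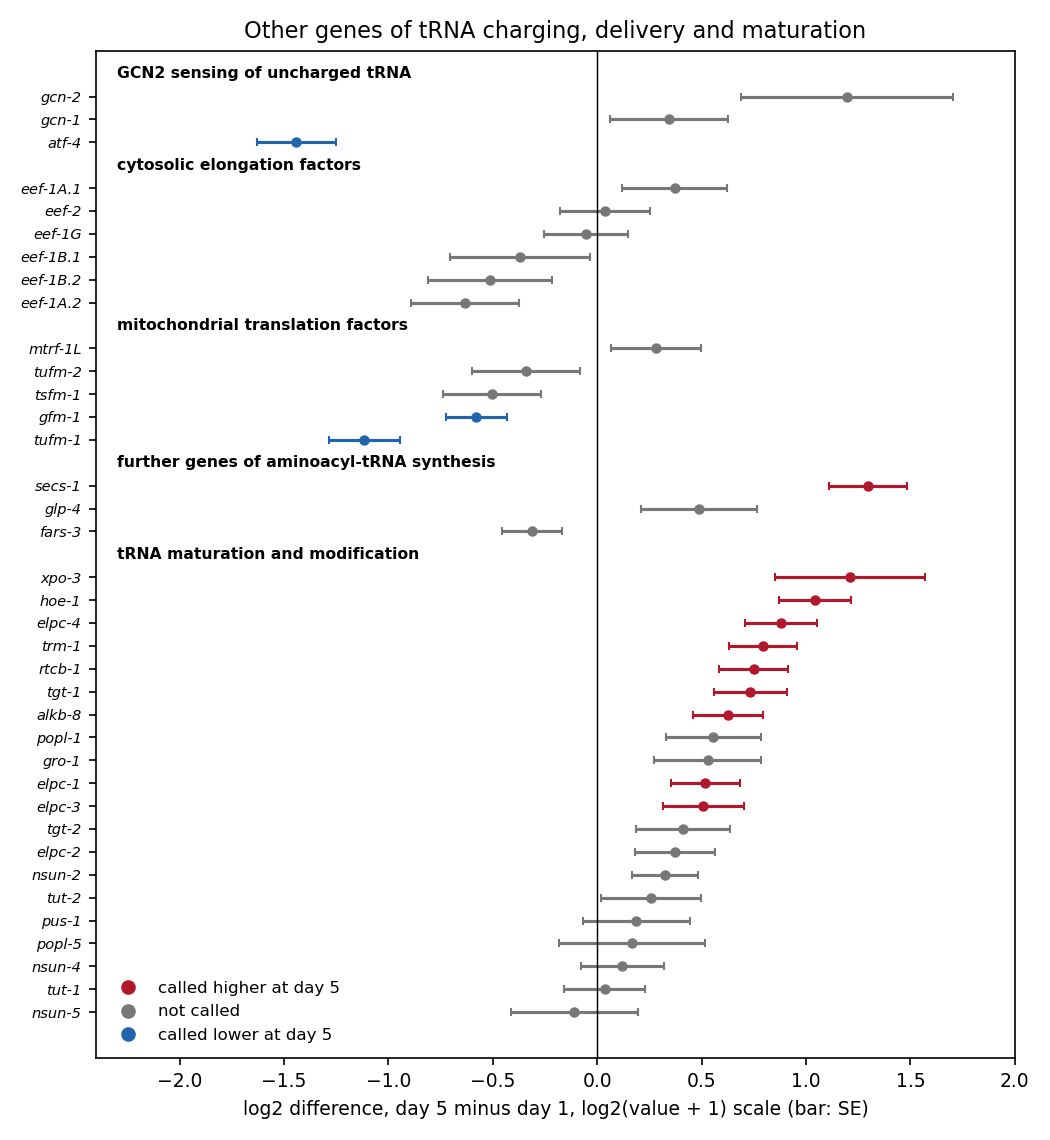
Log2 difference between day 5 and day 1, with the standard error, for the 37 genes outside the members, by list. Of the 20 tRNA maturation and modification genes 19 lie right of 0 and 9 were called higher, while tufm-1, gfm-1 and atf-4 were called lower.

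Of the mitochondrial translation factors, 5 of the 9 listed were found, and of these 2 were called lower, 0 higher and 3 in neither direction, beside 26.8% of all genes called lower. The mitochondrial elongation factor Tu gene tufm-1, which brings charged tRNA to the mitochondrial ribosome, had values of 4399, 4453, 4139 and 4674 at day 5, against 8040, 8460, 11298 and 10886 at day 1. The elongation factor G gene gfm-1 had values of 2251, 2268, 2438 and 2204 at day 5, against 3022, 3671, 3317 and 3709 at day 1. In both genes every day 5 library lay below every day 1 library, with log2 differences of -1.12 (SE 0.17, limma adjusted p = 0.00040) and -0.58 (SE 0.15, limma adjusted p = 0.0072). tufm-2 at -0.34, tsfm-1 at -0.50 and the release factor gene mtrf-1L at 0.28 were not called. Of the 6 cytosolic elongation factor genes limma called 0 higher and 0 lower, edgeR and DESeq2 each called 1 lower, and 1 had an unadjusted p under 0.05. Their log2 differences ran between -0.63 for eef-1A.2 (limma adjusted p = 0.062) and 0.37 for eef-1A.1.

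Of the 3 genes found in the pathway that senses uncharged tRNA, 1 was called lower, beside 26.8% of all genes. This was atf-4, the counterpart of the transcription factor named above. Its values were 736, 674, 707 and 636 at day 5, against 2142, 1363, 1932 and 2159 at day 1. The groups lay far apart, with a log2 difference of -1.44 (limma adjusted p = 0.00016, SE 0.19). The kinase gene gcn-2 had a log2 difference of 1.20 (limma adjusted p = 0.070, SE 0.51), with means of 1394 ± 277 at day 5 and 750 ± 489 at day 1 (SD, n = 4 each), and its partner gcn-1 one of 0.34. Neither was called, and with the batch as a block gcn-2 was called higher (limma adjusted p = 0.040).

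Of 3 further genes of aminoacyl-tRNA synthesis, 1 was called higher, beside 28.8% of all genes. The cytosolic valyl-tRNA synthetase gene glp-4 averaged 7241 ± 640 at day 5 and 5470 ± 2002 at day 1 (SD, n = 4 each), with a log2 difference of 0.49 (limma adjusted p = 0.17). The beta subunit gene of the cytosolic phenylalanyl enzyme, fars-3, averaged 3304 ± 221 at day 5 and 4101 ± 267 at day 1, with groups that did not overlap. It was thus lower at day 5 in 4 of 4 batches, as was its alpha partner fars-1, whose groups overlapped. The log2 difference of fars-3 was -0.31 (limma adjusted p = 0.091). The gene secs-1, whose product makes selenocysteine on its tRNA, had values of 737, 600, 601 and 556 at day 5, against 290, 238, 234 and 247 at day 1. The groups did not overlap, and the log2 difference of 1.30 (SE 0.19, limma adjusted p = 0.00027) was called.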

How the data were processed

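Poly(A)-selected RNA of whole animals was extracted with TRIzol and made into libraries with the NEBNext Ultra kit, per the labels' protocols, and strand marking is not stated there. HISAT2, HTSeq and build WBcel235 are named in the submitters' processing notes without versions. The authors' table carries the name FPKM. In each library 100% of the deposited signal values came out as whole reads, within 0.001 of a read, after division by 1 number, so they are counts over a size factor and not FPKM. Depth was 19345868 to 22305681 reads per library over 17076 listed genes, so counting error is small beside the spread between libraries, and reads that are PCR copies could not be recognized.

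Values were tested as log2(value + 1) with limma 3.58.1 (R 4.3.3, mean-variance trend, groups only) in the 16739 genes with a mean of at least 1, with Benjamini-Hochberg adjustment and a threshold of 0.05. All 32 members passed this filter. A fold change on this scale understates that of genes with few reads. edgeR 4.0.16 and DESeq2 1.42.0 on the whole reads, recovered for 100% of values, were alternatives; over all genes limma called 4820 higher and 4487 lower, edgeR 4633 and 4670, and DESeq2 4826 and 4879. Pair ratios were compared with exact two-sided permutation tests. Coordinates, exonic lengths and overlaps came from annotation release 115 of WBcel235, 1-based, and levels per kilobase use exonic length. Levels of paralogues and of genes that overlap others are uncertain where reads could be split.

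The labels give each batch number to 1 library of each age, so the batches pair the libraries by label. Deviations from the group means of libraries that share a batch correlated at -0.22, 0.24, -0.09 and -0.02 in batches 1 to 4. A single batch holds 1 library per age and allows no test within it. No libraries agreed within sampling noise.

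The members, gene lists and tests were chosen with earlier results of these data known. Values of all libraries are given for the called members with the largest differences, for both genes of each amino acid whose genes had differences of opposite sign or of which 1 was called, for the highest member of each set, and for at most 2 called genes of each list with groups apart. The compartment regrouping and the members by gene name alone were chosen after seeing the data.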

Additional observations from a re-analysis of the deposited data

Results flagged for a closer look

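Of 64 groups of 4 libraries tested, 1 for each member and age, 1 held a library far from the others. The value of fars-2, the mitochondrial phenylalanyl-tRNA synthetase gene, in the day 5 library of batch 4 was 1738, while the lowest of the other 3 day 5 libraries was 1197. Its gap to the nearest library was 0.844 of the group's range on the log2(value + 1) scale, above the critical value of Dixon's test for 4 values. Chance marks about 1 in 20 such groups.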

How the results depend on the processing

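With every library scaled to the same sum, the -1 set had 1 gene called lower and a median of 0.20, so 1 member was lower, and 5 genes of the other lists were lower. With scaling on genes outside the top 1%, the -1 set had 0 called higher and 3 lower with a median of 0.031, the -2 set had 2 lower, the members had 2 higher and 5 lower, and the lists had 7 lower. With quantile normalization, the -1 set had 2 higher and 5 lower with a median of 0.035, the -2 set had 5 lower with a median of -0.55, the members had 10 lower, the lists had 3 higher and 6 lower, 7 pairs did not overlap, and elpc-1 at -0.076 and elpc-3 at -0.10 were reversed. The cause of these shifts was not tested. Over all genes, scaling to the same sum called 4628 higher and 4794 lower of 16743. Scaling on genes outside the top 1% called 4220 higher and 5337 lower of 16749, and quantile normalization 4113 and 4318 of 16739. The -1 set had 2 called higher with an untrended prior. With the replicate block it also had 2, and no other count changed by over 1.5 times. Leaving out 1 library, or both libraries of 1 batch, gave 0 to 5 genes higher and 0 to 0 lower in the -1 set, 2 to 4 higher and 0 to 1 lower in the -2 set, 2 to 9 higher and 0 to 1 lower of all members, 6 to 15 higher and 2 to 4 lower in the lists, and 2 to 5 pairs without overlap. The lowest count of members higher came without both libraries of batch 2 and the highest without the day 1 library of batch 3. Medians were then 0.24 to 0.34 in the -1 set and -0.01 to 0.21 in the -2 set. Without the day 1 libraries of batches 1 and 2, 1 gene of the -2 set and so 1 member (lars-2) was lower, 7 list genes were lower and 6 pairs did not overlap. Without those of batches 3 and 4, 4 genes of the -2 set and 18 list genes were higher and 5 pairs did not overlap. Of all 16739 genes, 4744 were called lower in the first of these settings and 5028 higher in the second. Fewer libraries make groups without overlap more frequent by construction. Grouping by compartment left 1 mitochondrial gene higher. The exact permutation test of a pair cannot give less than p = 0.0286.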
